A study of Mus musculus with 4 samples.

Results

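Collagens are the main structural proteins of the extracellular matrix, and each is built from chains encoded by separate genes. All genes named Col followed by a type number, the letter a and a chain number were taken, which gave 44 collagen chain genes of the 27998 genes in the count matrices. They were described by library and by cell type in mouse inner ear organoids, stem cell cultures that contain sensory epithelium among many other cell types. The wild-type (WT) organoids were grown from the R1/E line. The knockout (KO) organoids came from R1/E cells with a knockout of Tmprss3 and a GFP knock-in, labelled Tmprss3KO-GFPKI. Tmprss3 encodes a transmembrane serine protease whose loss causes deafness. Organoids of both genotypes were dissociated at day 25 and day 35, and the derived strain was the same for all (129X1x129S1). Each of the 4 groups had 1 library, so no difference below has a replicate check or a test. The labels do not say how many organoids or clones went into a library. Values of the 4 libraries are given below in the order WT day 25, KO day 25, WT day 35, KO day 35.

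Collagen chains from the same gene or from several wind around each other into a helix. Fibrillar collagens (types I, II, III, V and XI among them) give tissues tensile strength, and type IV forms the sheet of basement membranes. Type VI forms beaded filaments close to cells, and the FACIT collagens decorate the surface of fibrils. The remaining members are network-forming, transmembrane, multiplexin or anchoring collagens. In the inner ear, types II, IX and XI are known from the tectorial membrane and the otic capsule, and mutations in their genes cause hearing loss. Type IV chains are known from the basement membranes of the cochlea.

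After barcodes with fewer than 500 genes or more than 10% mitochondrial UMIs were left out, 35853 cells remained, between 6729 and 11190 per library. A UMI is 1 captured transcript, and CPM is counts per 1000000 UMIs of the same cells. Median UMIs per cell were 6166.5, 6371, 3089 and 4420, so day 35 was shallower. Intervals are exact 95% intervals for counting error alone and do not cover differences between organoids. Libraries shared 76 to 142 cell barcodes in pairs, at most 1.58% of the smaller library. Tmprss3 gave 18, 8, 14 and 8 UMIs over all barcodes, too few to check the genotype labels. Cells were clustered without the collagen genes, and 18 of 23 clusters could be named from marker genes.

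The promoter windows below belong to 4 members that the results turn on: Col3a1, the most counted member, Col8a1, which differed between the days, and Col9a1 and Col11a1, members of the cartilage-type collagens described later. Each is the 120 bases before the transcription start in RefSeq on GRCm38.p6, read 5′ to 3′ on the strand of the gene. Capitals mark matches, on either strand, to the TATA box letters TATAAA, to the CCAAT box and to the GC box core GGGCGG. A GC box on the opposite strand reads as CCGCCC, and a CCAAT box there ends in the letters TTGG.
Col3a1, chr1:45311418-45311537, plus strand: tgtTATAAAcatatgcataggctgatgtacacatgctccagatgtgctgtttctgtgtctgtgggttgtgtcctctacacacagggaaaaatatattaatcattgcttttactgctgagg
Col8a1, chr16:57754738-57754857, minus strand: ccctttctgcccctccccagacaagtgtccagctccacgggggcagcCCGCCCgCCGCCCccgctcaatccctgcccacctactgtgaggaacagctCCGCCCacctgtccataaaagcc
Col11a1, chr3:114030420-114030539, plus strand: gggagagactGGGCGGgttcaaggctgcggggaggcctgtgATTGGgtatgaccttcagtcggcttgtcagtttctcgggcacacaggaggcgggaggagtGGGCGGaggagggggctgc
Col9a1, chr1:24177490-24177609, plus strand: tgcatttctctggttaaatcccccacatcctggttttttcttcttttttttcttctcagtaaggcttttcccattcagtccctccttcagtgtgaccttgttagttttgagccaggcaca

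Col8a1 held GGGCGG at 3 places, and Col11a1 at 2. The Col9a1 window, at the upstream of 2 RefSeq starts, held none of the motifs, while the window before the other start, chr1:24195083-24195202, held CCAAT 18 bases before it. RefSeq entries were found for 35 members with 38 starts. GGGCGG was present before 18 of the 38 starts (47.4%) and before 26.5% of 32851 mouse promoter windows of the same length. TATAAA was present in 3 of 38 (7.89%) against 6.34%, and CCAAT in 6 (15.8%) against 21.3%. ACAAAG and ACAATG, letters bound by SOX factors, were present in 0 and 1 (2.63%) against 7.79% and 4.96%, and the E-box CAGCTG in 4 (10.5%) against 6.76%. The SOX and E-box letters were searched on both strands too, and overlapping matches were counted once per window. These matches describe the letters in the windows alone. Col1a1, Col2a1, Col4a3, Col5a2, Col9a3, Col12a1, Col14a1, Col22a1 and Col26a1 had no entry. Col4a1 and Col4a2, which encode the commonest type IV chains, started 21 bases apart on opposite strands of chromosome 8. The Col4a5 and Col4a6 starts lay 1343 bases apart on the X chromosome.

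Collagen genes took 0.723%, 1.05%, 0.605% and 0.783% of all UMIs, and the share was higher in KO than in WT on each day. Each of the 44 members was detected, and 41 had at least 50 UMIs over all kept cells. Col28a1 had 48, Col6a4 15 and Col10a1 8. Fibrillar members held 80.8% of the 1899269 collagen UMIs, type VI 8.85%, type IV 4.36%, the multiplexins 2.38% and the FACIT group 2.35%. Transmembrane members held 0.416%, network-forming members 0.316% and Col7a1, Col26a1 and Col28a1 together 0.566%. Col1a1 and Col1a2, the 2 chains of type I, and Col3a1, the chain of type III, gave 1454230 UMIs between them. They made up 75.4%, 76.5%, 76.5% and 78.8% of the collagen UMIs. In whole libraries, fewer cells of a type and less RNA per cell cannot be told apart, and the cell types are therefore taken 1 by 1.

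**Figure D1:**
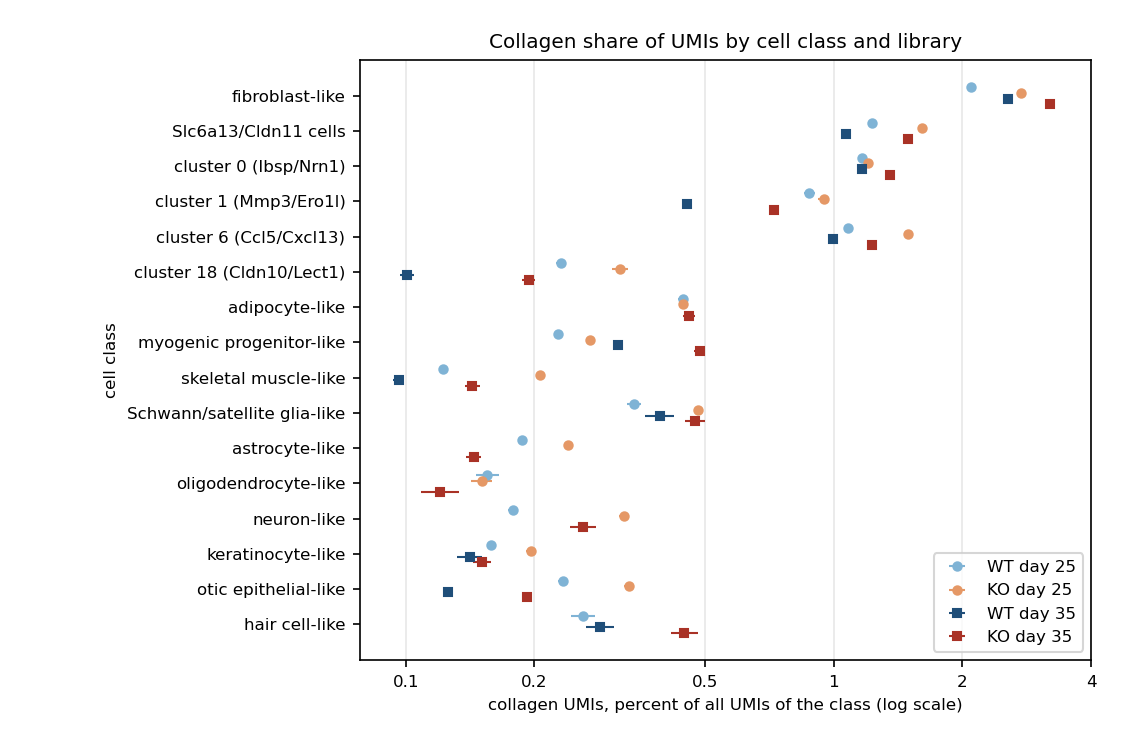
Collagen UMIs as a percent of all UMIs (log axis) by cell class with at least 20 cells, with 1 point per library and exact Poisson intervals. The cycling-like, pluripotent-like and immune-like classes are not drawn. Fibroblast-like cells have the highest share in every library (2.09% to 3.21%), and the KO point lies above the WT point of its day in most classes.

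Fibroblast-like cells had the highest collagen share in every library, at 2.09%, 2.75%, 2.55% and 3.21% of their UMIs. They made up 14.6%, 17.9%, 9.98% and 13.4% of kept cells but held 36.4%, 45.7%, 38.8% and 43.2% of all collagen UMIs. They were named from mesenchymal markers such as Dpt, Lum and Dcn. Cluster 2, led by Agtr2 and Dpt, supplied 1411, 1924, 95 and 145 of them, and cluster 3, led by Mfap5, Cilp and Pi16, supplied 20, 74, 720 and 757. The class thus came mostly from different clusters on the 2 days.

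A second mesenchymal class was named after its leading genes Slc6a13, a GABA and taurine transporter, and Cldn11, a tight junction protein. Its collagen share was 1.23%, 1.61%, 1.07% and 1.49% in 667, 685, 1092 and 817 cells. Markers of otic fibrocytes led this cluster too, but the defining ones were found in few of its cells. Cluster 0, unnamed and led by Ibsp, Nrn1 and Cyp26b1, had a share of 1.16%, 1.21%, 1.17% and 1.36%. Cluster 6, unnamed and led by Ccl5 and Cxcl13, had 1.08%, 1.50%, 0.998% and 1.23%. All other classes were below 1%. The cycling-like class, at 0.494%, 0.560%, 0.335% and 0.734%, joined cluster 9 with 1.44% over the libraries and cluster 14 with 0.197%. Among the others, Schwann or satellite glia-like cells reached 0.341%, 0.482%, 0.393% and 0.475%, otic epithelial-like cells 0.233%, 0.332%, 0.125% and 0.192%, and keratinocyte-like cells 0.158%, 0.196%, 0.141% and 0.151%.

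Col1a1, Col1a2 and Col3a1 were counted in every class, including those that should make little of them. In otic epithelial-like cells the sum of these 3 genes was 641, 1325, 740 and 1168 CPM. In skeletal muscle-like cells it was 766, 1432, 693 and 1118 CPM, and in keratinocyte-like cells 961, 1289, 745 and 941 CPM. These levels were 11.8% to 18.9% of the level of the whole library in those 3 classes, and they followed its order between WT and KO. Over 6 such classes, with neuron-like, astrocyte-like and oligodendrocyte lineage-like cells, they were 11.1% to 29.2%. The oligodendrocyte lineage-like cells went against the order at day 25, where the WT cells had 1013 CPM and the KO cells 889 CPM. In droplet data free RNA gives such counts in every cell. Thinned to 2000 UMIs, Col3a1 was detected in 26.1%, 40.6%, 18% and 27.2% of otic epithelial-like cells, and in 65.4%, 78.9%, 27.6% and 51.7% of them before thinning, at median depths of 7729, 7926.5, 3482 and 5213 UMIs. In fibroblast-like cells the thinned share was 99.5%, 99.9%, 99.7% and 99.8%. How much of the low level of these 3 genes outside mesenchyme is free RNA was not tested, and no expression is read from it.

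**Figure D2:**
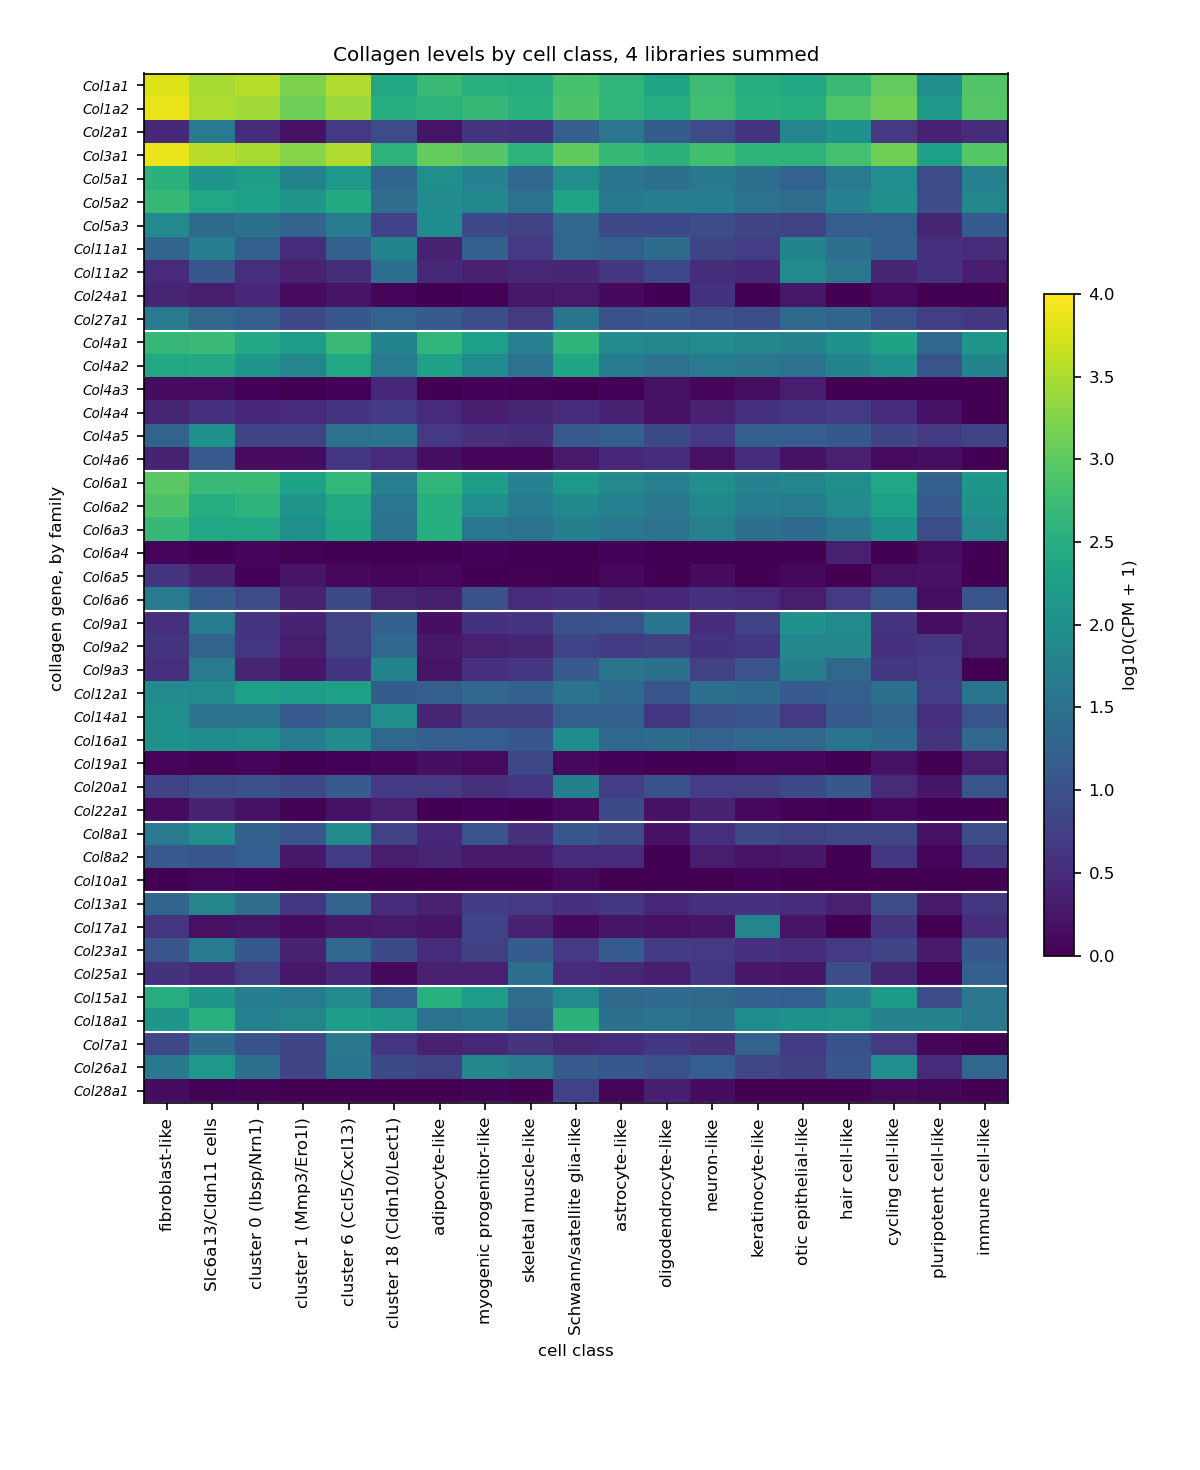
Heat map of the 44 collagen genes (rows, by family between white lines) in each cell class (columns), as log10(CPM + 1) of UMIs summed over the 4 libraries. Col1a1, Col1a2, Col3a1, Col5a1, Col5a2, Col6a1, Col6a2 and Col6a3 are highest in fibroblast-like cells, while Col17a1, Col19a1, Col22a1 and Col28a1 each stand out in 1 class.

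Of 37 members with at least 20 UMIs in all 4 libraries, 17 had their highest level in the same class every time. In 8 of the 17 that class was the fibroblast-like cells: Col1a1, Col1a2, Col3a1, Col5a1, Col5a2, Col6a1, Col6a2 and Col6a3.

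Among the fibrillar members, Col1a1 reached 5132, 6564, 4954 and 7144 CPM in fibroblast-like cells. Col1a2 reached 6142, 7881, 7392 and 9027 CPM, and Col3a1 5646, 7760, 8293 and 10787 CPM. Each of the 3 was higher in KO than in WT at day 25, and again at day 35. Col5a1 and Col5a2, chains of type V that sets the diameter of type I fibrils, were at 323, 411, 239 and 287 CPM and at 383, 487, 615 and 552 CPM. Col5a3, another type V chain, was at 57.1, 89.4, 69.9 and 73.4 CPM in fibroblast-like cells and at 67.3, 92.8 and 99.6 CPM in adipocyte-like cells, a class with under 20 cells in WT at day 35. Col27a1 and Col24a1 encode minor fibrillar chains. Col27a1 stayed between 27.2 and 46.0 CPM in fibroblast-like cells, and Col24a1 had 207 UMIs over all kept cells. Col2a1, Col11a1 and Col11a2 followed another pattern and are described with type IX.

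The ratio of partner chains differed between the days for type V. In fibroblast-like cells Col5a1 gave 0.845, 0.844, 0.389 and 0.519 UMIs per Col5a2 UMI, and in the Slc6a13 and Cldn11 cells 0.547, 0.688, 0.302 and 0.478. Each genotype was lower at day 35 in both classes. Col1a1 per Col1a2 was 0.836, 0.833, 0.670 and 0.791 in fibroblast-like cells, although the type I protein holds more of the first chain than of the second. Col4a1 per Col4a2 was 1.91, 1.89, 1.97 and 2.07 in the same cells. Over 61 class and library sums with enough UMIs it lay between 1.22 and 3.21, with a median of 2.04. Col5a1 per Col5a2 lay between 0.186 and 1.46 over 58 sums, with a median of 0.678. The annotated 5′ ends of Col4a1 and Col4a2 overlap, whereas the kit counts 3′ ends. Capture can differ between genes, so the ratio of 1 pair is read across cells and not as a number of chains.

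In the type IV family, Col4a1 was highest in adipocyte-like cells, cluster 6, fibroblast-like cells and the Slc6a13 and Cldn11 cells, in the order of the libraries. It stood at 376, 671, 383 and 567 CPM in the Slc6a13 and Cldn11 cells and at 357, 541, 432 and 445 CPM in fibroblast-like cells. Schwann or satellite glia-like cells, which lay down their own basement membrane, had 325, 432, 248 and 261 CPM of Col4a1. Col4a5 and Col4a6, chains of a second type IV network, were highest in the Slc6a13 and Cldn11 cells of every library. Col4a5 was at 50.003, 80.0, 136 and 157 CPM there, and Col4a6 at 11.6, 7.78, 17.4 and 13.3 CPM. Col4a5 was 6.13 to 10.96 times, and Col4a6 9.82 to 23.9 times, their level in all other cells. Col4a3 and Col4a4, known from kidney and cochlear basement membranes, had 63 and 466 UMIs in all.

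In the type VI family, Col6a1, Col6a2 and Col6a3 form the classical filament. In fibroblast-like cells Col6a1 was at 780.5, 998, 989 and 1105 CPM, Col6a2 at 645, 871, 717 and 758 CPM, and Col6a3 at 398, 525, 493 and 475 CPM. Col6a6, an alternative to the Col6a3 chain, was at 51.4, 56.5, 9.84 and 19.8 CPM, lower at day 35 in both genotypes. Col6a5, its neighbour on chromosome 9, was at 0.982, 1.77, 8.43 and 8.40 CPM and thus higher at day 35. In adipocyte-like cells Col6a1 was at 415, 418 and 426 CPM, close to each other in the 3 libraries with enough of these cells.

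Several members stood out in a class outside mesenchyme. Col17a1 encodes the hemidesmosome collagen that anchors basal keratinocytes. It was at 78.0, 49.1, 65.8 and 54.3 CPM in keratinocyte-like cells and at 1.95, 1.98, 0.760 and 0.592 CPM in all other cells. Thinned to 2000 UMIs, 11.7%, 8.82%, 12% and 10.01% of keratinocyte-like cells had a Col17a1 UMI, and 0.719%, 0.833%, 0.248% and 0.159% of fibroblast-like cells. Before thinning the shares were 30.1%, 26.2%, 19.4% and 23.5% against 2.45%, 2.95%, 0.368% and 0.333%. The lowest keratinocyte-like value was above the highest fibroblast-like value on both scales.

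Col25a1, a transmembrane collagen needed for motor innervation of muscle, was at 47.2, 21.5, 15.5 and 12.1 CPM in skeletal muscle-like cells. It was lower at day 35 than at day 25 in each genotype and lower in KO than in WT on each day. The myotube cluster 11 had 63.9, 36.4, 16.9 and 14.2 CPM of Col25a1, and the Myog cluster 12 had 8.61, 4.61, 5.58 and 0 CPM. Cluster 11 supplied 561 of 968 skeletal muscle-like cells in WT at day 25 and 471 of 1196 in KO, so composition moved with the class value. Within cluster 11 KO was lower at day 25 (log2 ratio -0.81, -1.05 to -0.57), while the interval at day 35 includes 0 (-0.24, -1.05 to 0.50). In KO at day 35 the highest level was in hair cell-like cells, on 3 UMIs. Col19a1, a FACIT collagen of muscle and nerve, was at 10.9, 4.49, 3.23 and 1.21 CPM in skeletal muscle-like cells and at 0.301, 0.205, 0.0377 and 0.0273 CPM in all other cells.

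Among glia, Col20a1, a FACIT collagen of little known role, was at 69.4 and 54.5 CPM in Schwann or satellite glia-like cells at day 25. At day 35 these cells were few (61 and 67), and Col20a1 gave 0 and 2 UMIs there. The exact interval of the 0 reaches up to 22.8 CPM, and at day 35 cluster 6 had the highest level in both libraries (9.73 and 14.0 CPM). Col28a1, known from peripheral nerve, had 29 of its 48 UMIs in KO at day 25, where the class stood at 6.17 CPM and 45.8 times the other cells. Col18a1, a multiplexin of basement membranes and the source of endostatin, was at 347, 355, 303 and 603 CPM in the Schwann or satellite glia-like cells. The mesenchymal Slc6a13 and Cldn11 cells had 288, 449, 244 and 367 CPM of Col18a1, so a high level was not particular to glia. Col22a1, a FACIT collagen known from tissue junctions, was at 5.29, 9.07 and 8.22 CPM in astrocyte-like cells of the 3 libraries that held enough of them. All other cells had 0.489, 0.382 and 0.273 CPM of Col22a1.

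**Figure D3:**
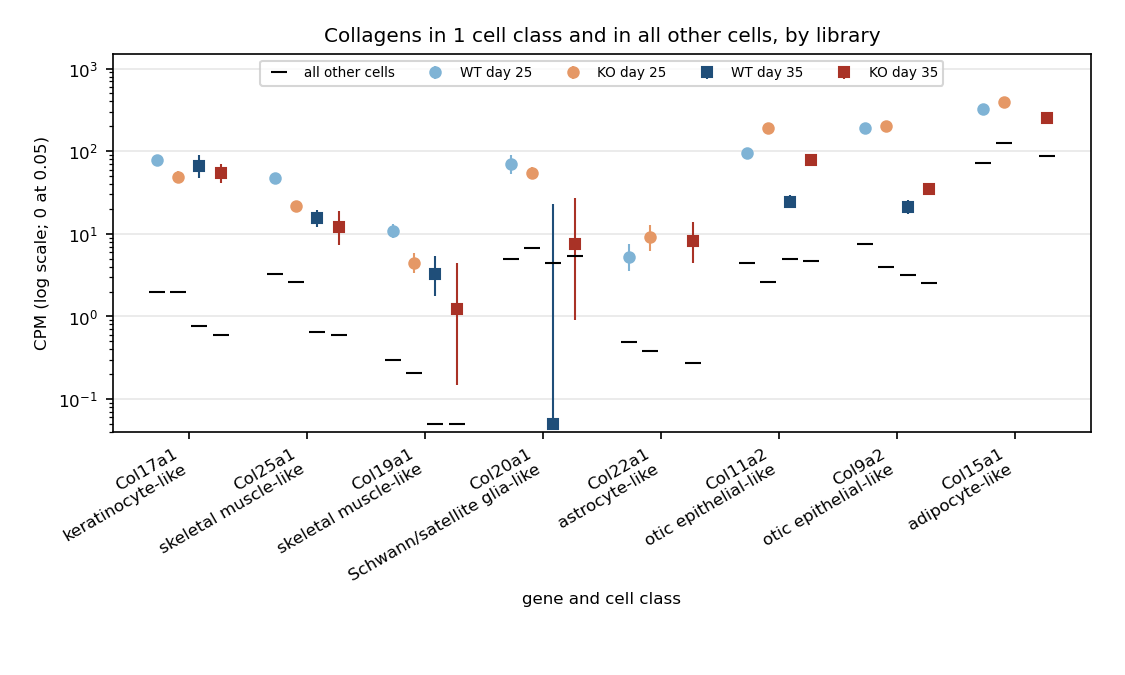
Level (CPM, log axis) of 8 collagens in 1 cell class, with 1 symbol per library and exact Poisson intervals, and in all other cells of the same library (black bars). Col17a1 lies between 49.1 and 78.0 CPM in keratinocyte-like cells and at or below 1.98 CPM elsewhere, while Col20a1 loses its distance from the other cells at day 35.

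The members described next were highest in mesenchymal classes, in adipocyte-like cells or in unnamed clusters. Col13a1 and Col23a1, transmembrane collagens of cell adhesions, were highest in the Slc6a13 and Cldn11 cells of every library. Col13a1 was at 56.5, 70.2, 65.1 and 64.3 CPM there, and Col23a1 at 42.4, 54.5, 38.8 and 46.0 CPM. Col26a1, a short collagen also called EMI domain protein, was at 164, 184, 83.4 and 85.8 CPM in these cells. Col7a1, which forms the anchoring fibrils of skin, was highest in cluster 6 of each library (34.7, 49.0, 33.7 and 35.1 CPM) rather than in keratinocyte-like cells (19.3, 15.7, 31.3 and 10.4 CPM). Col12a1, a FACIT collagen on type I fibrils, was highest in clusters 0, 1 or 6. It was at 179, 187, 246 and 178 CPM in cluster 0 and at 78.0, 80.4, 115 and 82.1 CPM in fibroblast-like cells. Col14a1, a related FACIT collagen, was at 104, 104, 94.9 and 94.7 CPM in fibroblast-like cells. It was at 149, 143, 47.5 and 69.6 CPM in cluster 18, an unnamed cluster whose leading genes include Cldn10 and Lect1. Col15a1, a multiplexin around muscle and fat, was at 217, 331, 367 and 419 CPM in fibroblast-like cells and at 326, 390 and 254 CPM in adipocyte-like cells. Col16a1 lay between 91.8 and 139 CPM in fibroblast-like cells. Col8a1 and Col8a2 form the type VIII network, and Col8a2 did not exceed 21.1 CPM in fibroblast-like cells.

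Types II, IX and XI, which build cartilage-type fibrils, were high in otic cells. In otic epithelial-like cells Col2a1 was at 171, 343, 1.63 and 12.1 CPM. Col9a1 was at 382, 151, 47.0 and 52.8 CPM, Col9a2 at 192, 204, 21.2 and 34.9 CPM, and Col9a3 at 205, 81.3, 13.3 and 26.2 CPM. Col11a1 was at 89.1, 129, 25.9 and 64.6 CPM and Col11a2 at 96.0, 190, 24.5 and 77.3 CPM. All 6 were lower at day 35 than at day 25 in each genotype, on the log2 scale by 6.71 in WT and 4.83 in KO for Col2a1. The WT value of Col2a1 at day 35 was near the floor, so the 6.71 rests on few UMIs. The whole library held 93 Col2a1 UMIs, and all cells outside the Slc6a13 and Cldn11 cells stood at 1.57 CPM. Col11a2 and Col9a2 were highest in otic epithelial-like cells of every library, at 4.98 to 72.2 times and 6.65 to 51.8 times their level in all other cells. The other 4 were highest there in some libraries only. Hair cell-like cells led Col2a1 in WT at day 25 (215 CPM) and astrocyte-like cells led Col9a3 in KO at day 35 (50.5 CPM). In the order of the libraries the class comprised 188, 166, 1033 and 1202 cells.

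Between KO and WT the otic epithelial-like cells differed in these genes, but not in 1 direction at day 25. Col9a1 was lower in KO at day 25 by a log2 ratio of -1.34 (-1.54 to -1.14) and Col9a3 by -1.33 (-1.61 to -1.07), while Col2a1 was higher by 1.002 (0.82 to 1.19) and Col11a2 by 0.98 (0.73 to 1.24). At day 35 Col2a1 (2.88), Col11a2 (1.66) and Col11a1 (1.32) were past 2-fold higher in KO. The Col2a1 ratio rests on the low WT value given above. Over the class, 8 of 23 measured members were past 2-fold at day 25 (6 higher, 2 lower) beside 3.28% of 7601 genes, and 5 of 26 at day 35 (4 higher, 1 lower) beside 4.44% of 10462. The 6 higher members at day 25 included Col1a1 and Col3a1. Together with Col1a2 these reached 11.8% of the level of the WT library and 16.5% of that of the KO library, and the part of free RNA in their difference was not tested.

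The 2 otic clusters contributed unequally. At day 25 cluster 16, led by Otol1 and Oc90, came from 106 WT and 42 KO cells, and cluster 17, led by Otoa and C2cd4b, from 82 and 124. Col9a1 was at 561 and 170 CPM in cluster 16 and at 109 and 144 CPM in cluster 17. Col9a3 was at 300.04 and 42.0 CPM in cluster 16 and at 59.5 and 96.4 CPM in cluster 17. So both were lower in KO in cluster 16 and higher in KO in cluster 17. Col2a1 was at 166 and 204 CPM in cluster 16 at day 25 (log2 ratio 0.30, -0.04 to 0.64), an interval that includes 0. The whole class stood at 171 and 343 CPM. In cluster 17, the other part of the class, Col2a1 was therefore above 343 CPM in KO and also higher than in WT. Col11a2 was at 63.0 and 211 CPM in cluster 17 at day 25 (log2 ratio 1.74, 1.32 to 2.19), and at 12.9 and 82.2 CPM at day 35 (2.67, 2.14 to 3.24). In cluster 16 it was at 118 and 136 CPM at day 25 (0.21, -0.22 to 0.62), an interval that includes 0, and at 35.6 and 71.1 CPM at day 35 (0.998, 0.64 to 1.36). The interval was thus above 0 in 3 of the 4 comparisons of Col11a2 within a cluster.

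In fibroblast-like cells collagens together were 1.31 times higher in KO at day 25 and 1.26 times at day 35. At day 25, 33 members had at least 50 UMIs over the 2 libraries, and 21 were above WT, beside 49.4% of 11277 genes. Their median log2 ratio was 0.30, beside -0.0041 over those genes. Past 2-fold was 1 of 33, Col25a1, which was lower at 5.46 and 2.31 CPM (-1.24, -1.91 to -0.58), beside 2.04% of all genes, and this count lay between 0 and 4 under the alternatives. Both values of Col25a1 are low beside its level in muscle, where it was also lower in KO. At day 35, 17 of 27 measured members were above WT, beside 61.1% of 8553 genes, and their median of 0.08 stood beside 0.10 over those genes. Neither value set the collagens apart from all genes at day 35. Past 2-fold were 3 of 27, beside 4.57% of all genes: Col4a5 (1.45, 0.97 to 1.96) and Col6a6 (1.01, 0.37 to 1.68) higher, and Col11a1 (-1.75, -2.21 to -1.31) lower. Col11a1 was at 49.9 CPM in WT at day 35 and at 17.4, 15.98 and 14.8 CPM in the other libraries in the order above. Col4a5 was at 43.3 CPM in KO at day 35 and at 14.0, 14.2 and 15.8 CPM in the others. The Col4a5 difference was not stable to how cells were grouped: with each library clustered alone it was -0.76, and at resolution 2.0 it was 0.22.

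Type I and III chains were higher in KO on each day. The log2 ratio of Col3a1 at day 25 was 0.46 (0.44 to 0.47) and that at day 35 0.38 (0.36 to 0.40), Col1a1 by 0.36 and 0.53, and Col1a2 by 0.36 and 0.29. Of 26 members measured on both days, 15 were higher and 5 lower in KO both times. Over 8533 genes measured on both days, 30.2% were higher and 19.97% lower both times. Col4a1 and Col4a2 were higher by 0.60 and 0.61 at day 25 but differed by 0.05 and -0.03 at day 35, where both intervals include 0. The sum of Col1a1, Col1a2 and Col3a1 was also higher in KO on both days in otic epithelial-like, skeletal muscle-like and keratinocyte-like cells, and the part of free RNA in the fibroblast-like difference was not tested.

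**Figure D4:**
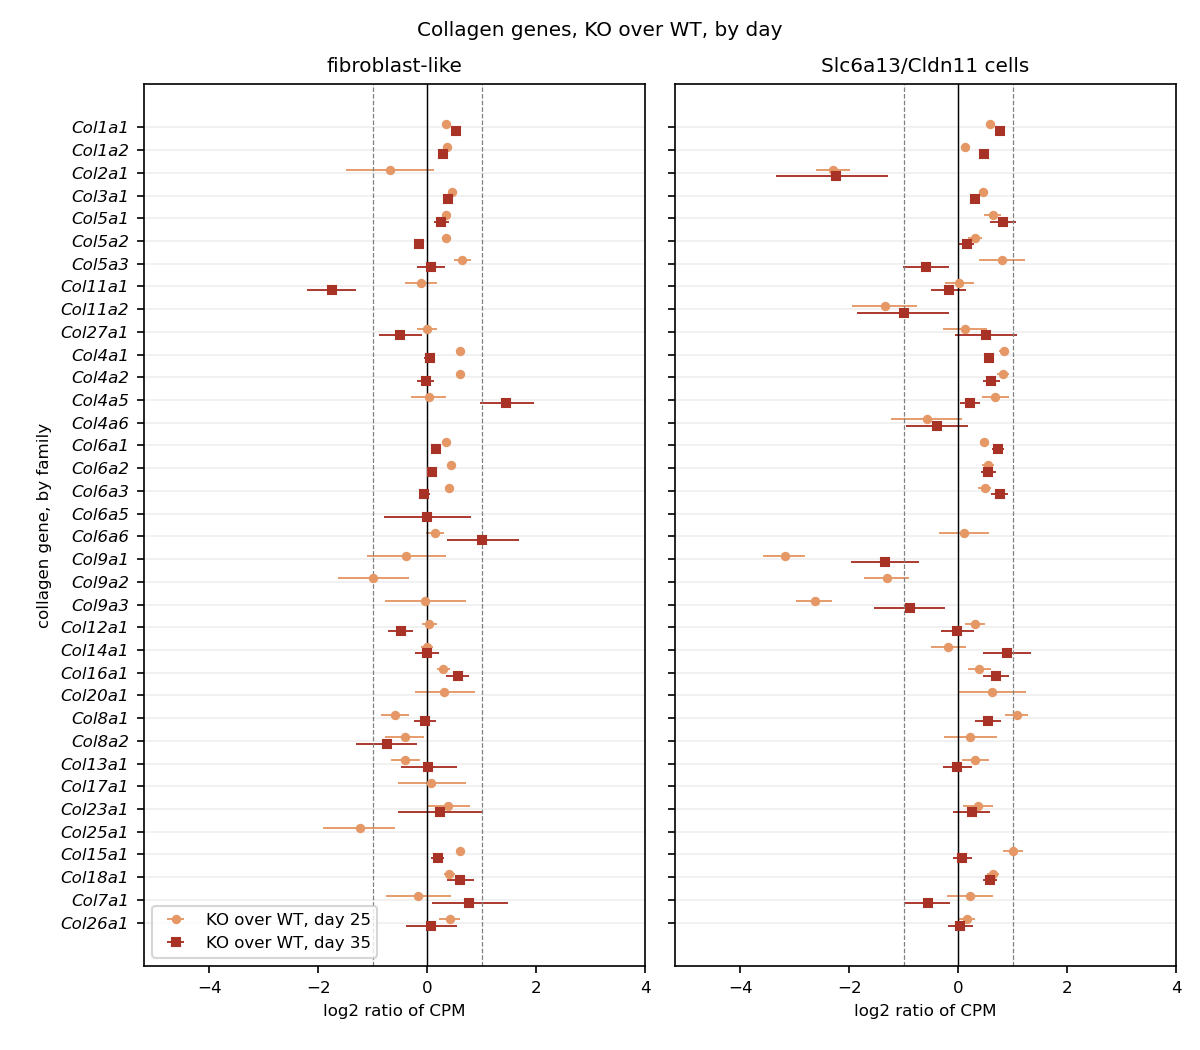
Log2 ratio of CPM, KO over WT, at day 25 (circles) and day 35 (squares) for each collagen with at least 50 UMIs over the 2 libraries, in fibroblast-like cells (left) and in Slc6a13 and Cldn11 cells (right), with exact intervals for counting error. Dashed lines mark 2-fold. Most points lie between 0 and 1, and Col2a1, Col9a1 and Col9a3 lie far to the left in the right panel at day 25.

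In the Slc6a13 and Cldn11 cells 5 of the 6 cartilage-type collagens were lower in KO at day 25. There, 7 of 33 measured members were past 2-fold, beside 1.63% of 9707 genes. Lower were Col9a1 (126 and 13.8 CPM, -3.18, -3.58 to -2.81), Col9a3 (121 and 19.4 CPM, -2.64) and Col2a1 (118 and 24.0 CPM, -2.29). Col11a2 (-1.35) and Col9a2 (-1.31) were lower too, while Col11a1 was at 53.2 and 54.0 CPM. With cells of at least 1000 genes and at most 5% mitochondrial UMIs, the ratios were -2.29 for Col9a1, -1.74 for Col9a3, -1.29 for Col2a1, -0.56 for Col9a2 and -0.11 for Col11a2, so the last 2 were no longer past 2-fold. Col8a1 (63.7 and 134 CPM, 1.07, 0.86 to 1.28) and Col15a1 (79.4 and 160 CPM, 1.01, 0.82 to 1.20) were higher. Of the 33, 26 were above WT, beside 57.6% of all genes, with a median log2 ratio of 0.31, beside 0.05. At day 35, 2 of 29 were past 2-fold, Col2a1 (14.3 and 3.00 CPM, -2.25) and Col9a1 (22.0 and 8.72 CPM, -1.33), both lower, beside 2.53% of 8888 genes, and this count lay between 0 and 6 under the alternatives. Of the 29, 19 were above WT, beside 62.0% of all genes, with a median of 0.25, beside 0.10. Of 29 members measured on both days, 18 were higher and 5 lower in KO each time, beside 37.2% and 17.3% of 8718 genes.

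Most of the cartilage-type UMIs of WT at day 25 sat in a few cells. Cells of the class with UMIs of at least 2 of Otor, Coch and Pou3f4, which mark otic fibrocytes, the mesenchymal cells of the cochlear lateral wall and limbus, numbered 43, 10, 37 and 3. They were 6.45% (4.70 to 8.59), 1.46% (0.702 to 2.67), 3.39% (2.40 to 4.64) and 0.367% (0.0758 to 1.07) of the class, by exact Clopper-Pearson intervals. This gate was chosen after the data were examined, and the levels of its 3 genes are thus no result. The number of cells that pass it depends on those levels and on depth, and is no separate result. The gated cells held 1651 of 1825, 201 of 373, 154 of 248 and 6 of 112 UMIs of Col2a1, Col9a1, Col9a2, Col9a3 and Col11a2 in the class. Of the gated cells, 41, 9, 26 and 3 had at least 1 UMI of these genes.

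Otos, the defining fibrocyte gene otospiralin, gave 3, 0, 4370 and 0 UMIs in the class, and 3849 of the 4370 in WT at day 35 came from the gated cells. Otor gave 1641, 466, 526 and 0 UMIs in the class, and Coch 304, 3, 96 and 18, so that the 3 gated cells of KO at day 35 had no Otor. The other 7 markers of the otic fibrocyte list, without the 3 genes of the gate, summed to 734, 932, 31788 and 2105 CPM in the gated cells and to 922, 858, 937 and 815 CPM in the other cells of the class. At day 25 the sum was thus lower in the gated than in the other cells of WT and slightly higher in those of KO. Without Otos and without Cldn11, a leading gene of the class, the sums were 645, 426, 1227 and 1052 CPM against 255, 199, 247 and 213 CPM. Acan and Matn1, 2 cartilage genes of a longer chondrocyte marker list, had 0 UMIs in the gated cells of every library. The rest of that list is not described, so no absence of cartilage markers is read from these 2 genes. Doublet scores put 2, 1, 1 and 0 of the gated cells among the highest of their library.

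In the gated cells the same 5 genes, which are the cartilage-type members past 2-fold lower in KO at day 25, were together at 6343, 2314, 1212 and 371 CPM, and in the other cells of the class at 42.9, 37.9, 27.9 and 29.0 CPM. Col11a1, the sixth cartilage-type member, was at 146, 69.1, 62.9 and 61.9 CPM in the gated cells and at 47.3, 53.7, 46.8 and 41.9 CPM in the others. Within the gate, Col2a1 was at 1825 CPM in WT and 886 CPM in KO at day 25 and at 307 CPM in WT at day 35. Col9a1 was at 1936, 368 and 386 CPM and Col9a3 at 1890, 714 and 260 CPM in the same 3 libraries. Within the gate the day 25 log2 ratio of KO to WT was -2.39 (-2.96 to -1.88) for Col9a1 and -0.33 (-1.17 to 0.43) for Col11a2. The KO values rest on 10 cells, and the intervals cover counting error of UMIs and not differences between cells. As the 5 genes were picked for being lower in KO at day 25, their lower level in the gate is no separate result. Without the gated cells the day 25 ratios in the class were -0.45 for Col9a1, -0.26 for Col9a3, -0.12 for Col2a1, -0.06 for Col9a2 and 0.02 for Col11a2. The count of members past 2-fold fell from 7 to 1 at day 25, beside 1.55% of 9596 genes in the remaining cells, and from 2 to 0 at day 35, beside 2.33% of 8814. With 1 library per group, a difference between organoids or cultures in how many such cells formed cannot be told apart from one between genotypes.

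**Figure D5:**
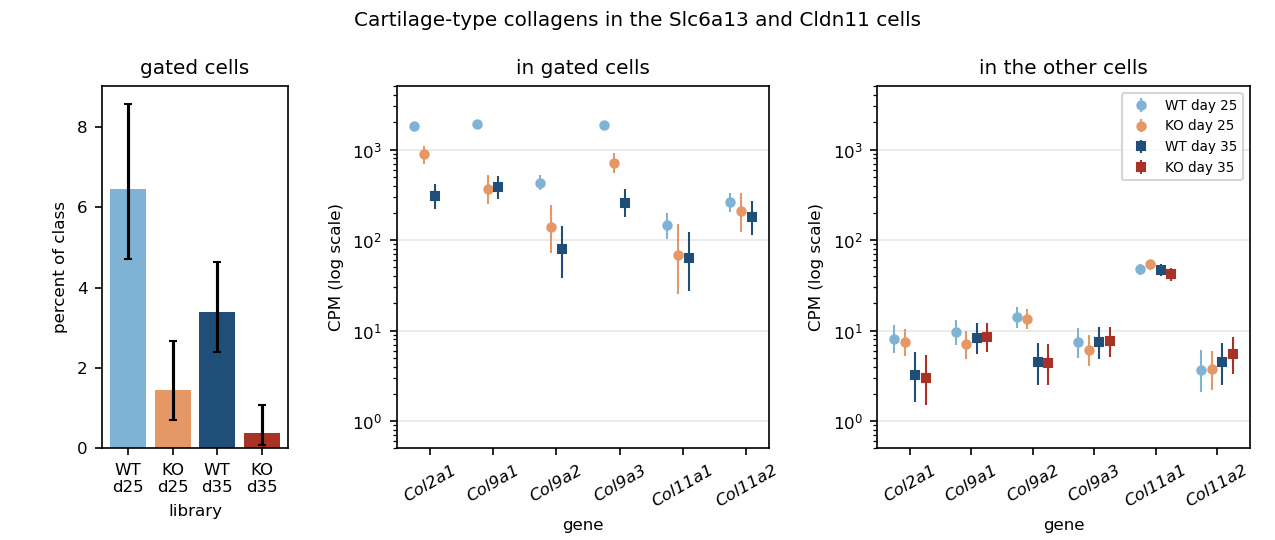
Left, fibrocyte-gated cells as a percent of the Slc6a13 and Cldn11 cells in each library (bars, exact Clopper-Pearson intervals). Middle and right, level (CPM, log axis, exact Poisson intervals) of 6 cartilage-type collagens in the gated cells (KO at day 35, with 3 cells, is not drawn) and in the other cells. Gated cells of WT at day 25 exceed those of the other drawn libraries for Col2a1, Col9a1, Col9a2 and Col9a3. In the other cells of the class, Col2a1 and Col9a2 are still past 2-fold lower at day 35 than at day 25 in WT.

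Between the days, Col8a1, a network-forming collagen of vessel walls and eye, had the largest increase in fibroblast-like cells in each genotype. It was at 25.2 and 119 CPM at day 25 and day 35 in WT (log2 ratio 2.24, 2.00 to 2.49) and at 16.7 and 116 CPM in KO (2.79, 2.57 to 3.02). Col6a6 was lower at day 35 by -2.38 (-2.99 to -1.83) in WT and by -1.51 (-1.86 to -1.18) in KO. Past 2-fold in WT were 5 of 29 members, beside 12.4% of 9936 genes, and this count lay between 3 and 11 under the alternatives. The others were Col11a1 (1.52) higher and Col25a1 and Col9a2 lower. In KO 6 of 29 were past 2-fold, beside 9.02% of 10894 genes, and the count again lay between 3 and 11. The others were Col6a5 (2.25), Col7a1 (1.93) and Col4a5 (1.61) higher and Col17a1 lower. Most fibroblast-like cells came from cluster 2 at day 25 and cluster 3 at day 35. Within cluster 2, Col8a1 was at 25.1, 14.9, 30.3 and 25.9 CPM, and within cluster 3 at 30.4, 59.7, 131 and 133 CPM. The day difference of Col8a1 within cluster 2 was 0.27 (-0.81 to 1.17) in WT and 0.79 (-0.01 to 1.51) in KO, both with intervals that include 0, and within cluster 3 it was 1.16 (0.66 to 1.70) in KO. Composition therefore moved with the class value, and its part in the result was not tested.

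In the Slc6a13 and Cldn11 cells, 10 of 33 members were past 2-fold between the days in WT, beside 9.7% of 9197 genes, and 8 of 33 in KO, beside 5.82% of 9552. The WT count became 20 at resolution 2.0 or with each library clustered alone, 5 at a minimum of 200 UMIs and 6 without the fibrocyte-gated cells, and the KO count became 2 at 200 UMIs. Lower at day 35 in both genotypes were Col2a1 (-3.04 and -3.001), Col9a2 (-2.45 and -1.86), Col9a3 (-2.87 and -1.11), Col8a2 (-1.78 and -2.91), Col6a6 (-1.48 and -1.65) and Col20a1 (-1.06 and -1.09). Col9a1 (-2.51) and Col14a1 (-1.03) were past 2-fold lower in WT alone, and Col12a1 (-1.19) and Col26a1 (-1.10) in KO alone. Without the gated cells the WT ratio of Col9a3 was 0.0038 (-0.82 to 0.82) and that of Col9a1 -0.21 (-0.97 to 0.53). Neither was thus past 2-fold, while Col9a2 (-1.66) was. Col2a1 stood at -1.32 there but had fewer than 50 UMIs over the 2 libraries, so it was not measured. The gated cells held 475 of its 508 UMIs in the class in WT at day 25 and 39 of 50 in WT at day 35. The difference between genotypes in these changes was not tested. Higher in WT were Col4a5 (1.44, 1.20 to 1.68) and Col5a3 (1.03, 0.59 to 1.47), but Col5a3 was -1.18 at clustering resolution 2.0 and -1.40 with each library clustered alone. Col4a5 was higher by 0.98 (0.79 to 1.17) in KO. The comparisons of WT with KO and of the days share libraries and are not independent of each other.

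Summed over all kept cells, 4 of 40 members were past 2-fold between KO and WT at day 25, all lower, beside 5.57% of 15573 genes. Col9a1 was at 25.9 and 6.81 CPM and Col9a3 at 23.2 and 7.43 CPM. Col17a1 was at 8.09 and 4.003 CPM, while keratinocyte-like cells made up 6.42% of the WT library and 3.03% of the KO library and had 78.0 and 49.1 CPM. Col19a1 was at 1.75 and 0.770 CPM. At day 35 2 of 37 were past 2-fold, beside 10.2% of 14276 genes: Col11a2, higher at 8.03 and 19.6 CPM (1.29, 1.08 to 1.50), and Col25a1, lower at 2.72 and 1.10 CPM. With the stricter filter on cells neither was past 2-fold. Otic epithelial-like cells, the class with the highest Col11a2, made up 12.6% of the WT library and 17.9% of the KO library.

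Genes that process or bind collagen chains were mostly within 2-fold between the genotypes, as were most of all measured genes. Of 51 such genes in 6 lists (hydroxylation and glycosylation, chaperones and export, propeptide cleavage, cross-linking, fibril-binding proteins, receptors and uptake), 42 were measured in fibroblast-like cells at day 25 and 39 at day 35. In KO over WT, 0 were past 2-fold at day 25 and 0 at day 35, beside 2.04% and 4.57% of all genes. Of these, 23 were above WT each time, with medians of 0.02 and 0.06, beside -0.0041 and 0.10 over all genes. At day 35 over day 25, 6 were past 2-fold higher and 1 lower in WT, beside 12.4% of all genes, and 5 higher and 2 lower in KO, beside 9.02%. Lox, the lysyl oxidase that cross-links fibrils, was at 238, 255, 585 and 531 CPM (1.30 and 1.06 in WT and KO). Ctsk, the collagen-degrading cathepsin K, was at 100.3, 135, 248 and 280 CPM (1.31 and 1.05). Itga1, a chain of a collagen receptor, was at 5.78, 8.02, 21.8 and 19.8 CPM, and Fmod, a proteoglycan on fibrils, at 22.0, 24.1, 45.3 and 56.1 CPM. P4ha3, a prolyl hydroxylase subunit, was at 4.26, 2.38, 14.4 and 8.16 CPM. These 5 genes were past 2-fold higher at day 35 in both genotypes. As with Col8a1, cluster 3 held most of the fibroblast-like cells at day 35, and its part in these differences was not tested. In the Slc6a13 and Cldn11 cells 32 of 38 were above WT at day 25 and 33 of 38 at day 35, beside 57.6% and 62.0% of all genes. Their median log2 ratios were 0.18 and 0.31, beside 0.05 and 0.10. Past 2-fold in KO over WT were 0 of 38 at day 25, beside 1.63% of all genes, and 1 of 38 at day 35, beside 2.53%. The 1 was Tnxb, a tenascin, which was higher at 6.28 and 20.4 CPM (1.70, 0.999 to 2.46).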

How the data were processed

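The authors deposited UMI counts per gene and cell barcode, 1 matrix for each of the 4 libraries. Per the labels' protocols, cells were dissociated with TrypLE, passed through a strainer and captured with the 10x Chromium v2 kit. Seurat 2.3.1, R 3.5.1, Cell Ranger 2.1.0, bcl2fastq and the builds GRCm38 and mm10 are given per the submitters' processing notes. How reads on antisense or overlapping genes were counted is not given in the sources used here.

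The collagen members, gene lists and markers were chosen with earlier results of these data known. Barcodes with at least 500 genes and at most 10% mitochondrial UMIs were kept. The libraries were clustered jointly with scanpy 1.11.5 (2000 variable genes without collagen or pathway genes, 30 components, 20 neighbours, Leiden resolution 1.0). A cluster was named when at least 3 of a marker list were among its 50 leading genes and 2 among the first 20. These thresholds, the name of the Slc6a13 and Cldn11 cells and the fibrocyte gate were chosen after the data were examined. The doublet caller marked 0, 208, 1 and 3 cells, too few to count as working in 3 libraries, so no doublets were removed, and the 779, 1012, 604 and 381 highest-scoring cells were left out in an alternative.

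CPM values come from UMIs added up over the cells of a class in a library. With 1 library per group no test across samples was made. A member was measured in a comparison with at least 50 UMIs over the 2 libraries and called past 2-fold when its log2 ratio reached 1 or -1. Intervals are exact Poisson, Clopper-Pearson or conditional binomial 95% intervals (scipy 1.17.1). On simulated counts, genes changed by 2-fold gave intervals away from 0 in 97% of cases for KO over WT in fibroblast-like cells at day 25 (11277 genes) and in 96% at day 35 (8553 genes). Of unchanged genes, 4.24% and 3.91% were called. The changed genes had median log2 ratios of 0.98 and 0.97, just short of the call at 1. The 97% and 96% thus concern intervals for counting error and are not the share that the 2-fold call would find. Every collagen could be named, with values for members with at least 50 UMIs and up to 6 members in each direction past 2-fold. Alternatives changed the cell filter, doublets, the denominator, the averaging, the clustering and the UMI minimum. Promoters were read from RefSeq on GRCm38.p6.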

Additional observations from a re-analysis of the deposited data

Results flagged for a closer look

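Col5a2, a type V chain, had opposite KO to WT differences on the 2 days in fibroblast-like cells, each with a counting interval that excludes 0. The log2 ratio was 0.35 at day 25 and -0.15 at day 35. Col5a3, another type V chain, did so in the Slc6a13 and Cldn11 cells, at 0.80 at day 25 and -0.59 at day 35. The ratio of Col5a3 between the days in WT changed direction in these cells at resolution 2.0 and with each library clustered alone. Its opposite KO to WT differences are therefore read for the main clustering only. The difference between the days was not tested, since each group had 1 library.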

How the results depend on the processing

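Of 327 values of 38 named log2 ratios under the alternatives, 321 kept their direction and 289 were past 2-fold. The exceptions in direction were Col4a5 in fibroblast-like cells, KO over WT at day 35 (-0.76 with each library clustered alone), Col5a3 in the Slc6a13 and Cldn11 cells, day 35 over day 25 in WT (-1.18 at resolution 2.0, -1.40 with each library clustered alone), and, without the gated cells, Col11a2 (0.019, KO over WT at day 25), Col9a1 (0.032, KO over WT at day 35) and Col9a3 (0.0038, day 35 over day 25 in WT). No paired analysis was possible because each group had 1 library and the labels carry no replicate numbers. For the same reason no replicate could be left out.

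In the order WT day 25, KO day 25, WT day 35 and KO day 35, the collagen share of the libraries came to 0.709%, 1.04%, 0.548% and 0.751% without a cell filter, 0.765%, 1.09%, 0.699% and 0.861% with the stricter filter, and 0.717%, 1.03%, 0.589% and 0.764% without the highest doublet scores. It was 1.06%, 1.55%, 0.828% and 1.05% of UMIs without mitochondrial, ribosomal and collagen genes, and 0.816%, 1.10%, 0.656% and 0.953% as a mean over cells. In fibroblast-like cells it was 2.77% in KO at day 25 and 2.35% in WT at day 35 with no filter, 2.14%, 2.79%, 2.46% and 3.16% with the stricter filter, and 2.11%, 2.80%, 2.63% and 3.25% without doublets. With the other denominator it was 3.10%, 4.09%, 3.46% and 4.399%, as a mean over cells 2.12%, 2.76%, 2.45% and 3.14%, at resolution 0.5 2.08%, 2.73%, 2.62% and 3.43%, and with each library alone 2.05%, 2.78%, 2.103% and 3.07%. At resolution 2.0 it was 2.02% in WT at day 25, 2.27% in WT at day 35 and 2.97% in KO at day 35.

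The count of members past 2-fold in fibroblast-like cells, KO over WT at day 25, was 1 and became 0 with no filter or at 200 UMIs, 2 with the stricter filter, without doublets, as a mean over cells, at resolution 2.0 or at 20 UMIs, 3 at resolution 0.5 and 4 with each library alone. At day 35 it went from 3 to 1 at resolution 2.0. Between the days it went from 5 in WT to 8 at resolution 2.0, 11 at 20 UMIs and 3 at 200 UMIs, and from 6 in KO to 11 and 3 at those minimums. In the whole library at day 35 it went from 2 to 0 with the stricter filter and 1 at 200 UMIs. In the Slc6a13 and Cldn11 cells, KO over WT, it went from 7 at day 25 to 3 with the stricter filter, 4 at resolution 0.5 and 1 without the gated cells, and from 2 at day 35 to 4 without doublets or with each library alone, 6 at resolution 2.0 and 0 at 200 UMIs or without the gated cells. Between the days in WT it went from 10 to 20 at resolution 2.0 or with each library alone, 5 at 200 UMIs and 6 without the gated cells, and in KO from 8 to 2 at 200 UMIs. The median log2 ratio between the days in these cells was -1.09 (WT) and -0.68 (KO) at resolution 2.0 and -1.17 and -0.72 with each library alone, against -0.32 and -0.36. The cause of these shifts was not tested, except that a UMI minimum changes how many members are measured and leaving out gated cells removes cells. Members with few UMIs, such as Col10a1, Col6a4 and Col28a1, are limited by depth.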
